A study of Mus musculus with 10 samples.

Results

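Nonsense-mediated decay (NMD) factors were followed here at the mRNA level in mouse embryonic stem cells (ESCs). They were the 7 genes Upf1, Upf2, Upf3a, Upf3b, Smg1, Smg5 and Smg6, chosen by name and not by any measured value, out of 51467 genes in the count table. All 7 were detected in every library and passed the filter of at least 3 CPM (counts scaled to a common library size) in 3 or more libraries, which left 11683 genes for testing. The study asked how much of the microRNA (miRNA) programme of these cells runs through the RNA helicase DDX6, and it measured mRNA by QuantSeq, which reads the 3′ end of polyadenylated transcripts. There were 3 libraries of wild-type (WT) V6.5 cells, 3 of a DGCR8 KO line and 4 of DDX6 KO cells, the latter from 2 clones with 2 libraries each. All cells were ESCs grown with serum, LIF and the inhibitors PD0325901 and CHIR99021 (2i). The DDX6 KO clones were made from V6.5 by CRISPR and carry a single-base insertion or a large deletion at the start of an internal exon, and the DGCR8 KO is 1 previously made line, so that line and genotype cannot be told apart there. DGCR8 is the partner of Drosha and is needed to make canonical miRNAs, while DDX6 links translational repression to decapping.

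NMD is the pathway that destroys mRNAs on which translation ends too early or too far from the normal 3′ end context. The helicase UPF1 gathers on such mRNAs, the adaptors UPF2 and UPF3A or UPF3B tie it to exon junction complexes, the kinase SMG1 phosphorylates it, and effectors such as SMG5 and SMG6 read that phosphorylation and bring in the enzymes that cut, decap and deadenylate the RNA. Several NMD factor mRNAs are known to be NMD substrates themselves, and NMD also limits a set of stress and differentiation transcripts in stem cells.

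The miRNAs that DGCR8 loss removes include the miR-290 to miR-295 and miR-302 families, the most characteristic miRNAs of ESCs. Some of their RefSeq mature sequences (GRCm38), all with the seed AAGUGCU, are shown with that seed, bases 2 to 8, in capitals. This seed was what was looked for in the 3′ UTRs of the 7 genes.
miR-291a-3p: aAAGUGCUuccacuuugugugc
miR-294-3p: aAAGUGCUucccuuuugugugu
miR-295-3p: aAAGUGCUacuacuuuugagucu
miR-302d-3p: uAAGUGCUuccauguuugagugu
The 4 share 1 seed, and its DNA complement was searched on the sense strand as AGCACTT, or as GCACTTA, which pairs with bases 2 to 7 and has an A opposite base 1. In miR-290a-3p and miR-291b-3p base 8 differs. Matches to their bases 2 to 8 were looked for only with an A opposite base 1. In the main annotated transcript of the 7 NMD factors 0 had a match, against 20.0% of the 10902 tested genes with a 3′ UTR (2183 genes). A match or its absence describes only the letters in that window.

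The 7 genes lie on 6 chromosomes of GRCm38. Upf1 (chr8:70331525-70353278, minus strand) and Upf3a (chr8:13785615-13799193, plus strand) share chromosome 8. Upf2 lies at chr2:5951469-6056703 on the plus strand, Upf3b at chrX:37091678-37110322 on the minus strand and Smg1 at chr7:118131308-118243670 on the minus strand. Smg5 lies at chr3:88336260-88362338 and Smg6 at chr11:74925823-75164448, both on the plus strand. Their 3′ UTRs ran from 719 bases in Upf3a to 4233 bases in Smg1, against a median of 1061 bases over the tested genes. A splice junction more than 50 bases after the stop codon, the classical mark of an NMD substrate, was annotated in the main transcript of 0 of the 7 (0.3% of tested genes). Main transcripts were taken only from the protein-coding biotype, which leaves out the NMD biotype. Both figures were therefore low by construction and do not show whether the genes yield NMD substrates. An alternative transcript of the NMD biotype was annotated for 3 of the 7, Smg1, Smg5 and Smg6, against 29.3% of tested coding genes. None shared exons with a gene on the same strand. Exons of Upf1 (with Cers1 and Gdf1) and Smg6 (with Srr and Gm12333) overlap antisense genes, and the deposited counts were restricted to the sense strand.

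The libraries were checked before the comparisons. They held 2131156 to 4745083 counts over genes, at which 3 counts amount to 0.632 to 1.41 CPM, and each NMD factor had 102 to 748 counts in each library. Dgcr8 stood at 50.4 to 65.8 CPM in WT and 9.16 to 15.5 CPM in the DGCR8 KO, and Ddx6 at 505 to 586 CPM in WT, 135 to 149 CPM in clone 1 and 25.7 to 39.0 CPM in clone 2. These are reads of transcript ends and not of the edited exons. The ESC markers Pou5f1, Sox2, Nanog, Esrrb, Zfp42 and Klf4 summed to between 2457 and 3167 CPM in every library, but single markers moved within that sum. In the DGCR8 KO Sox2 rose from 562 to 801 CPM, whereas Nanog, Zfp42 and Klf4 fell (adjusted p under 0.05, limma). In DDX6 KO Nanog rose from 569 to 869 CPM (log2 0.62, adjusted p under 0.05, limma), and the other 5 did not pass. Markers of primed cells (Fgf5, Otx2 and Pou3f1, of which 2 were tested) summed to 39.9 to 51.1 CPM in WT, 44.8 to 59.7 CPM in the DGCR8 KO and 14.3 to 18.7 CPM in DDX6 KO. Within them Fgf5 had 0 counts throughout, and Otx2 fell from 35.8 to 7.76 CPM in DDX6 KO (log2 -2.22, adjusted p = 5.2e-06, limma). In the DGCR8 KO Pou3f1 fell from 10.4 to 4.88 CPM (log2 -1.15, adjusted p under 0.05, limma). Otx2 stood at 45.7 CPM there and did not pass. Markers of trophoblast cells (Cdx2, Elf5 and Eomes, of which 1 was tested) summed to 10.6 to 19.7, 6.11 to 16.8 and 8.12 to 18.7 CPM in the same order, with Elf5 at 0 counts throughout. Fibroblast collagen and Thy1 transcripts, 4 genes of which 1 was tested, summed to 4.57 to 9.52 CPM in DDX6 KO, 3.12 to 4.32 CPM in WT and 2.04 to 3.06 CPM in the DGCR8 KO. The 1 tested, Col1a1, passed between the knockouts (log2 -2.40, DGCR8 KO minus DDX6 KO) and not against WT. Primitive endoderm markers (Gata4, Gata6, Sox17 and Pdgfra, all untested) summed to 1.70 to 4.01 CPM in WT, 1.63 to 4.41 in the DGCR8 KO and 2.78 to 4.76 in DDX6 KO. The part of these marker lists in the NMD factor values was not tested. Since these are bulk samples, fewer cells expressing a gene and less RNA per cell cannot be told apart.

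In WT cells Upf3a and Upf1 were the most abundant of the NMD factors and Smg5 the least abundant. These are CPM of transcript ends, not divided by length because QuantSeq yields about 1 fragment per transcript. Mean levels in WT (SD, n = 3) were 176 ± 7.82 CPM for Upf3a, 172 ± 17.0 for Upf1, 124 ± 13.5 for Smg1, 106 ± 9.69 for Upf2, 94.5 ± 9.63 for Smg6, 84.8 ± 5.90 for Upf3b and 51.3 ± 2.87 for Smg5. Libraries of neighbours in this order overlapped except between Upf1 and Smg1 and between Upf3b and Smg5. In the DGCR8 KO Smg1 moved to the top, at 177 ± 14.7 CPM, above every library of the other 6 genes. In DDX6 KO cells the mean of Upf1 was the highest, at 158 ± 14.5 CPM (n = 4), and Smg1, at 91.3 ± 6.15 CPM, lay among Upf3b, Smg6 and Upf2, whose libraries it overlapped. Smg5 had the lowest mean in all 3 genotypes.

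**Figure D1:**
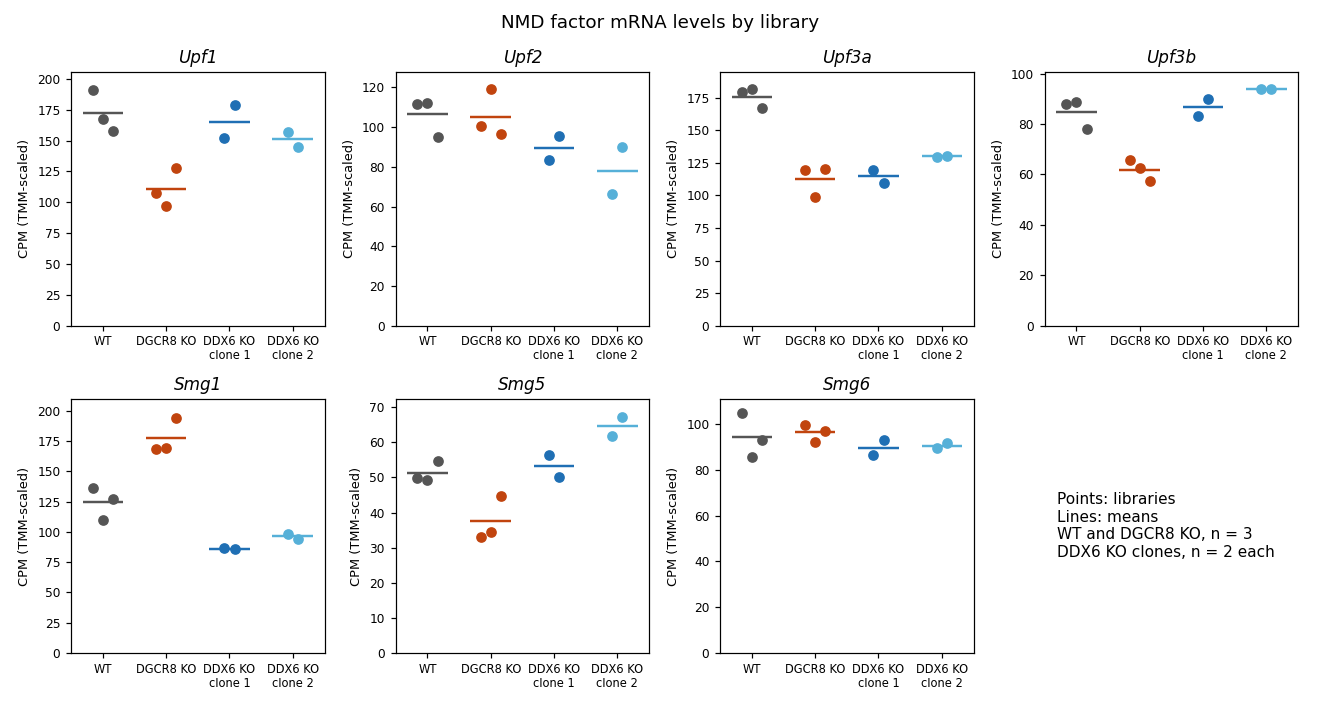
Level of each NMD factor in each library, in TMM-scaled CPM (y axis, from 0), by group (x axis). Points are libraries and lines are group means. Upf3a was below WT in every knockout library, and Smg1 was above WT in the DGCR8 KO and below WT in both DDX6 KO clones.

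The first comparison set the 1 DGCR8 KO line against WT cells. Loss of miRNAs and other traits of that line cannot be told apart in it. Of the 7, 4 fell (Upf1, Upf3a, Upf3b and Smg5), Smg1 rose, and Upf2 and Smg6 did not pass the test. Across all tested genes 36.3% passed in this comparison, with 19.9% higher and 16.5% lower (limma-voom, adjusted p under 0.05), and 44.8% had libraries that did not overlap between the groups. The median log2 fold change of the 7 was -0.44, and that of all tested genes was 0.0043. No member changed by more than 1 on the log2 scale, which 14.7% of tested genes did.

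Upf1, the helicase at the centre of the pathway, held 191, 168 and 158 CPM in the 3 WT libraries and 108, 96.7 and 127 CPM in the DGCR8 KO. All 3 knockout libraries were below all 3 WT libraries. The difference was -0.64 ± 0.13 (log2 fold change ± SE, adjusted p = 0.0007, limma). Among the adaptors, Upf3a went from 179, 181 and 167 CPM in WT to 119, 98.7 and 121 CPM, again without overlap, a difference of -0.64 ± 0.12 (adjusted p = 0.00031). Upf3b, the UPF3 paralogue encoded on the X chromosome, went from 87.9, 88.6 and 78.0 CPM in WT to 65.5, 62.4 and 57.4 CPM, and its groups did not overlap either. Its difference was -0.44 ± 0.13 (adjusted p = 0.0099).

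Upf2, which bridges UPF1 and the UPF3 proteins, stood apart from the other adaptors. Its libraries read 112, 112 and 95.2 CPM in WT and 100.4, 119 and 96.5 CPM in the DGCR8 KO, so the groups overlapped. The log2 difference was -0.0016, with a 95% interval of -0.29 to 0.29 (adjusted p = 0.99, limma).

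Smg1, the kinase that phosphorylates UPF1, was the only one of the 7 to rise. It measured 136, 109.7 and 127 CPM in WT and 168, 169.7 and 194 CPM in the DGCR8 KO, with every knockout library above every WT library. The difference was 0.51 ± 0.12 (adjusted p = 0.0019, limma) and passed under all 22 alternative settings.

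The effectors that bind phosphorylated UPF1 did not move together. Smg5, an adaptor that leads to decapping and to dephosphorylation of UPF1, went from 49.9, 49.4 and 54.6 CPM in WT to 33.1, 34.6 and 44.8 CPM in the DGCR8 KO, a difference of -0.49 ± 0.16 (adjusted p = 0.024, limma). The groups did not overlap, but the call was lost without WT replicate 3 (adjusted p = 0.092), without DGCR8 KO replicate 1 (adjusted p = 0.11) and without DGCR8 KO replicate 2 (adjusted p = 0.068). Smg6, the endonuclease of the pathway, read 104.7, 85.5 and 93.2 CPM in WT and 99.8, 92.3 and 96.9 CPM in the DGCR8 KO. Its knockout libraries lay within the WT range, and the log2 difference was 0.04 (95% interval -0.20 to 0.29, adjusted p = 0.80, limma).

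**Figure D2:**
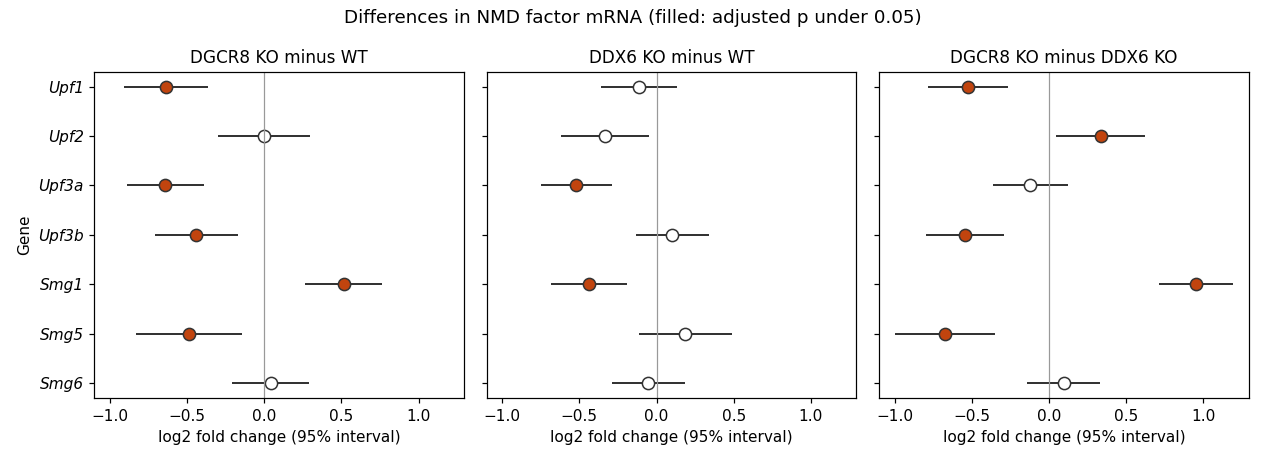
Log2 fold change of each NMD factor with its 95% interval from limma-voom (x axis) for the 3 comparisons of genotypes (panels), with 1 row per gene. Filled points have an adjusted p-value under 0.05. Smg1 is the 1 gene with filled points on opposite sides of 0 in the comparisons with WT.

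Of the 4 genes that fell in the DGCR8 KO, 2 shared a chromosome that was itself low. Chromosome 8, which carries Upf1 and Upf3a, stood below WT as a whole in the DGCR8 KO, where the median log2 difference from WT over its 644 tested genes was -0.44 (-0.51 to -0.38 over the 3 libraries). In DDX6 KO cells the median of that chromosome was -0.01. For the other chromosomes with members the medians in the DGCR8 KO lay between -0.01 for chromosome 7 and 0.10 for chromosome 3. With the chromosome's median deviation subtracted in each library, a setting added after seeing the data, Upf1 differed from WT by -0.20 (adjusted p = 0.22, limma-trend) and Upf3a by -0.20 (adjusted p = 0.17), and neither passed. Upf3b (-0.54, adjusted p = 0.0021), Smg5 (-0.56, adjusted p = 0.011) and Smg1 (0.53, adjusted p = 0.0022) still passed. The number of members passing was then 3 in place of 5. How much of the fall of these 2 genes went with that of their chromosome in this 1 line was not tested.

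**Figure D3:**
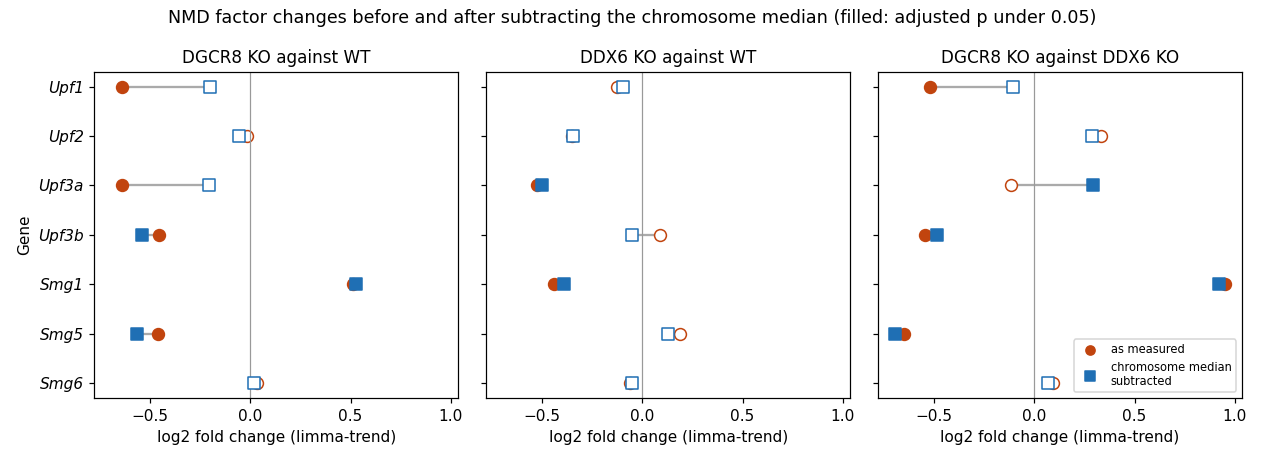
Log2 fold change of each NMD factor from limma-trend (x axis) as measured (circles) and after subtracting, in each library, the median deviation of the gene's chromosome (squares), for the 3 comparisons. Filled symbols have an adjusted p-value under 0.05. Upf1 and Upf3a, both on chromosome 8, move from -0.64 to -0.20 in the DGCR8 KO, and Upf3a crosses 0 in the comparison of the knockouts.

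In DDX6 KO against WT cells, 2 of the 7 NMD factors fell, Upf3a and Smg1, and the other 5 did not pass. The share of all tested genes that passed in this comparison was 34.5%, with 17.9% higher and 16.6% lower, and 39.9% had libraries that did not overlap. None of the 7 changed by more than 1 on the log2 scale, as 11.2% of tested genes did. The median log2 fold change of the 7 was -0.11, against 0.02 for all tested genes.

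Upf3a measured 119.8 and 109.6 CPM in clone 1 and 129 and 130.1 CPM in clone 2, all below the 3 WT libraries. The difference from WT was -0.52 ± 0.11 (adjusted p = 0.0011, limma), and it passed in each of the 25 alternative settings. Each clone also passed on its own in the fit with a group for each clone, in which 23.8% and 24.6% of tested genes passed for clones 1 and 2. The values were -0.61 ± 0.13 for clone 1 (adjusted p = 0.0029) and -0.43 ± 0.13 for clone 2 (adjusted p = 0.020). The clone 2 value lost its call without either clone 2 library (adjusted p = 0.11 without replicate 1 and 0.10 without replicate 2), without WT replicate 2 (adjusted p = 0.053) and with library totals as the scale (adjusted p = 0.090).

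Smg1 measured 86.4 and 85.9 CPM in clone 1 and 98.5 and 94.3 CPM in clone 2, again all below WT. Its difference from WT was -0.44 ± 0.11 (adjusted p = 0.0064, limma). Clone 1 passed alone (-0.52 ± 0.14, adjusted p = 0.013), though not after leaving out either of its libraries (adjusted p = 0.084 and 0.085). Clone 2 had a value of -0.36 ± 0.14 that did not pass (adjusted p = 0.063), though it did without WT replicate 2 (adjusted p = 0.038).

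Upf2 was the next member in size, at 83.5 and 95.6 CPM in clone 1 and 66.5 and 89.8 CPM in clone 2. Clone 1 replicate 2 lay within the WT range and the other 3 libraries lay below it. The difference of -0.34 ± 0.13 missed the threshold (adjusted p = 0.057, limma; 95% interval -0.61 to -0.06). It passed under 6 of 25 alternative settings, with adjusted p from 0.012 to 0.31 over all of them.

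The levels of Upf1 in DDX6 KO cells were 152, 178, 157 and 145 CPM, overlapping WT, and its difference was -0.11 (95% interval -0.35 to 0.13, adjusted p = 0.46, limma). Upf3b read 83.1, 90.1, 93.9 and 94.0 CPM, with a difference of 0.10 (-0.13 to 0.34, adjusted p = 0.50), and Smg5 read 56.4, 50.1, 61.9 and 67.2 CPM, with a difference of 0.19 (-0.11 to 0.48, adjusted p = 0.32). Both overlapped WT through clone 1. Smg6 was the steadiest, at 86.4, 92.9, 89.4 and 91.8 CPM in the 4 libraries, and differed by -0.05 (-0.28 to 0.17, adjusted p = 0.73).

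The clones did not differ measurably from each other in any NMD factor. Of the 7, 0 passed between clone 2 and clone 1 in limma-voom, 0 had an unadjusted p under 0.05, and 0 passed in edgeR or DESeq2, where 0.0428% of all tested genes passed in limma-voom. The log2 differences (clone 2 minus clone 1) ran from -0.20 for Upf2 (95% interval -0.58 to 0.18) to 0.28 for Smg5 (-0.09 to 0.65). With 2 libraries a clone these intervals are wide, and differences within them are not excluded.

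The direct comparison of DGCR8 KO with DDX6 KO cells tests whether the 2 knockouts left the NMD factors at different levels. Both knockouts are set against the same WT libraries in the comparisons above, so this is the test of their difference. Of the 7, Smg1 and Upf2 were higher in the DGCR8 KO and Upf1, Upf3b and Smg5 were lower. The test was passed by 44.0% of all tested genes here, with 23.0% higher and 21.0% lower, and 45.8% had libraries that did not overlap. None of the 7 differed by more than 1 on the log2 scale over both clones, which 17.1% of tested genes did.

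Smg1 showed the largest difference of the 7. Its 168 to 194 CPM in the DGCR8 KO and 85.9 to 98.5 CPM in DDX6 KO cells gave a log2 difference of 0.95 ± 0.11 (adjusted p = 2.2e-06, limma), a ratio of 1.93. It was 1.03 ± 0.14 against clone 1 and 0.87 ± 0.13 against clone 2. WT lay between the knockouts without overlapping either. Smg5 differed by -0.67 ± 0.15 (adjusted p = 0.0014) and Upf3b by -0.54 ± 0.12 (adjusted p = 0.0011), with no overlap of libraries in either case. Those 3 genes passed under all 25 alternative settings.

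Upf1 was lower in the DGCR8 KO than in DDX6 KO cells (-0.52 ± 0.12, adjusted p = 0.0018, limma), and the libraries did not overlap. With the chromosome's median deviation subtracted the value was -0.11 (adjusted p = 0.48, limma-trend). Upf2 was barely past the threshold, at 0.33 ± 0.13 (adjusted p = 0.0496), and lost the call in 21 of 25 alternative settings, where adjusted p reached 0.31. Upf3a, which fell in both knockouts, differed between them by -0.12 (95% interval -0.36 to 0.11, adjusted p = 0.40) and, with the chromosome's median deviation subtracted, by 0.29 (adjusted p = 0.031, limma-trend). Smg6 differed by 0.10 (-0.13 to 0.32, adjusted p = 0.50).

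The rest of the NMD and translation termination machinery was followed in a list of 10 genes, all tested. In the DGCR8 KO 3 fell and 1 rose, so that 4 of the 10 passed where 36.3% of all tested genes did. Ruvbl2 (-0.67 ± 0.17, adjusted p = 0.0050, limma), 1 of a pair of helicases that support SMG1-family kinases, fell, whereas its partner Ruvbl1 rose (0.58 ± 0.15, adjusted p = 0.0047). Etf1, which encodes the release factor that recognises stop codons, fell by 0.54 (log2, adjusted p = 0.00016, limma), and Gspt1, its GTPase partner, fell by 0.29 (adjusted p = 0.024). Gspt1 lost the call in 3 of 22 alternative settings. In DDX6 KO cells Ruvbl2 (-0.54, adjusted p = 0.012) and Etf1 (-0.40, adjusted p = 0.0014) fell and Pnrc2, which links UPF1 to decapping, rose (0.47, adjusted p = 0.015); without WT replicate 3 the 3 genes became 1. The share of all tested genes that passed there was 34.5%. Smg8 and Smg9, which hold SMG1 in check, passed in neither comparison with WT. Between the knockouts 2 of the 10 differed, Pnrc2 (-0.46) and Gspt2 (-0.50), where 44.0% of all tested genes did. Both lost the call without DGCR8 KO replicate 1, and Gspt2 also without DGCR8 KO replicate 2 or 3 or replicate 1 of either DDX6 KO clone.

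Exon junction complex and cap-binding genes, through which UPF3 and newly made mRNAs meet NMD, formed a list of 9 genes, all tested. In DDX6 KO cells 6 of them fell and 1 rose, 7 of 9 against 34.5% of all tested genes. The 6 were Ncbp2 (-0.65 ± 0.09, adjusted p = 2.9e-05, limma), the core helicase gene Eif4a3 (-0.51, adjusted p = 0.0053), Rnps1 (-0.48), Rbm8a (-0.48), Magoh (-0.34) and Casc3 (-0.30). Magoh and Casc3 lost the call in 14 and 9 of 25 alternative settings, both of them when the libraries of each clone were summed. Magohb, a copy of Magoh on chromosome 6, rose from 9.94 to 26.0 CPM (1.23, adjusted p = 0.0099), on a chromosome whose median was 0.58 higher in DDX6 KO cells than in WT. With that median deviation subtracted it differed by 0.68 (adjusted p = 0.099, limma-trend, a different fit). In the DGCR8 KO 4 of the 9 fell, Ncbp1 (-0.70 ± 0.13, adjusted p = 0.00028), Rnps1 (-0.63), Rbm8a (-0.37) and Ncbp2 (-0.35), and 0 rose, against 36.3% of all tested genes passing. Between the knockouts Eif4a3 (0.50), Casc3 (0.49) and Ncbp2 (0.29) were higher in the DGCR8 KO and Magohb (-1.37) and Ncbp1 (-0.54) lower, 5 of 9 against 44.0% of all tested genes. Ncbp2 lost this call in 7 of 25 alternative settings. The list's median log2 fold change was -0.35 in the DGCR8 KO and -0.48 in DDX6 KO cells.

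Transcripts long known as NMD substrates formed a list of 12, all tested. It held the stress genes Gadd45a, Gadd45b, Atf4 and Ddit3, the snoRNA host transcripts Gas5, Snhg1, Snhg12 and Zfas1, and the splicing factor genes Srsf2, Srsf3, Hnrnpl and Tra2b, which have NMD-sensitive isoforms that 3′ end counts do not separate. In the DGCR8 KO 3 rose and 1 fell, 4 of 12 against 36.3% of all tested genes. Gadd45a rose from 5.47 to 37.1 CPM (2.78 ± 0.34, adjusted p = 5.8e-06, limma), Ddit3 rose by 0.81 (adjusted p = 0.040) and Zfas1 by 0.42 (adjusted p = 0.021), and Srsf2 fell by 0.25 (adjusted p = 0.035). Of 22 alternative settings Ddit3 lost the call in 12, DESeq2 among them, Zfas1 in 7 and Srsf2 in 4. With the replicate number as a block, 2 genes fell in place of 1. Of the 4 genes, 1 passed without WT replicate 2, WT replicate 3 or DGCR8 KO replicate 1, and 2 without DGCR8 KO replicate 2 or 3, with Gadd45a passing in all of these.

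In DDX6 KO cells 1 of the 12 rose and 6 fell, 7 of 12 against 34.5% of all tested genes. Gadd45a rose to 21.6 CPM (2.01 ± 0.34, adjusted p = 0.00024, limma-voom). With the median deviation of chromosome 6 subtracted it rose by 1.28 (adjusted p = 0.00035, limma-trend). These values come from different fits, and how much of their gap went with the chromosome was not tested. All 4 snoRNA host transcripts fell: Zfas1 from 117 to 64.6 CPM (-0.85), Gas5 from 419 to 247 CPM (-0.77), Snhg12 from 25.3 to 16.3 CPM (-0.69) and Snhg1 from 375 to 236 CPM (-0.68). Srsf3 (-0.28) and Hnrnpl (-0.27) also fell, though they lost the call in 3 and 9 of 25 alternative settings. For Hnrnpl these included the libraries of each clone summed. Without WT replicate 3, 4 of the 7 genes passed, and Zfas1, Gas5 and Snhg1 passed in every alternative setting. Between the knockouts 6 of the 12 were higher in the DGCR8 KO and 0 lower, against 44.0% of all tested genes passing in either direction. They were led by Zfas1 (1.28 ± 0.14, adjusted p = 8.3e-07, limma) and Gas5 (0.81, adjusted p = 1.2e-05). Among the 6, Snhg12 lost the call in 18 of 25 alternative settings. Gadd45a and Snhg1 lost theirs with clone 1 alone. The list's medians were -0.10 in the DGCR8 KO and -0.28 in DDX6 KO cells, against 0.0043 and 0.02 over all tested genes.

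**Figure D4:**
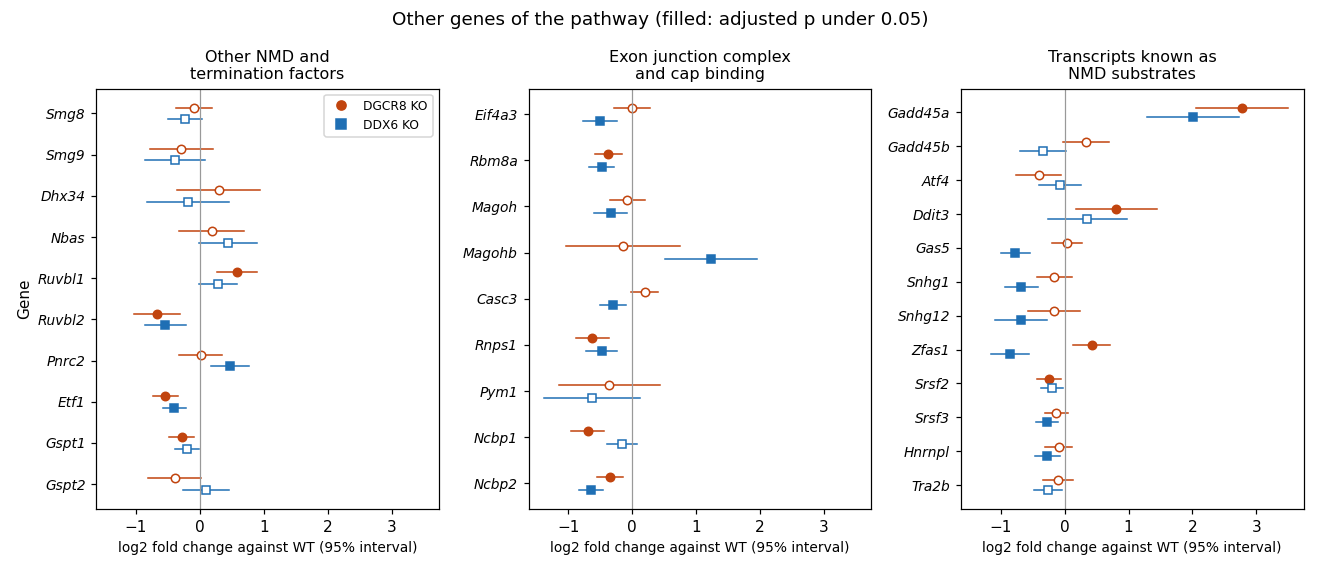
Log2 fold change against WT with its 95% interval from limma-voom (x axis) for the other NMD and termination factors, the exon junction and cap-binding genes and the known NMD substrates (panels), in the DGCR8 KO (circles) and DDX6 KO (squares). Filled symbols have an adjusted p-value under 0.05. Gadd45a was higher in both knockouts, and the snoRNA host transcripts Gas5, Snhg1, Snhg12 and Zfas1 were lower in DDX6 KO cells.

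Across the 10 libraries the NMD factors did not share 1 pattern. The Pearson correlation of log2 CPM, a description over libraries that share genotypes, was 0.79 between Upf1 and Upf3b and 0.78 between Upf3b and Smg5, and -0.88 between Upf3b and Smg1 and -0.75 between Smg1 and Smg5. Of 8336 genes averaging 10 CPM or more, those most like each member were Cmtm4 (r = 0.97) and Fance (0.96) for Upf1, Gcsh (0.98) and Slc4a5 (0.97) for Upf3a, Rala (0.98) and B3gnt5 (0.97) for Upf3b, and Tbrg1 (0.99) and Vps72 (0.98) for Smg1. Syncrip (0.95) and Zswim7 (0.94) were the nearest to Smg5. Upf2 and Smg6, the members that did not pass in the DGCR8 KO, had lower best values, with Tpp2 (0.92) and Dcaf4 (0.88) for Upf2 and Pdxdc1 and Bok (both 0.87) for Smg6. Cmtm4 and Gcsh, like Upf1 and Upf3a, lie on chromosome 8.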

How the data were processed

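QuantSeq 3′ end libraries of 10 mouse ESC samples were used. The authors trimmed reads with cutadapt 1.14, aligned them to mm10 with STAR 2.5.3a, kept unique reads and counted them per gene, sense strand only, with featureCounts 1.5.3, and they deposited raw whole-number counts per gene. Symbols and models came from Gencode vM21 (GRCm38), with a second list of gene names for identifiers absent from it. Together these matched 51274 of 51467 identifiers. The 92 ERCC spike-in rows (1.10% to 2.36% of counts) were left out. Totals were 2131156 to 4745083 counts per library, without molecular identifiers, so floors (3 counts) cover counting error only.

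The 11683 genes reaching 3 CPM in 3 or more libraries were scaled by TMM in edgeR 4.0.16 and fitted with limma-voom (limma 3.58.1, R 4.3.3) on all 10 libraries with genotype as the term, and again with a group for each DDX6 KO clone. Adjusted p-values are Benjamini-Hochberg over all tested genes, two-sided, with 0.05 as the threshold, and intervals cover 95%. Log2 values for correlations and limma-trend used a prior count of 2. The genotype fit counted the libraries of both DDX6 KO clones as separate replicates. edgeR's quasi-likelihood test, DESeq2 1.42.0, other scalings and filters, a replicate block and omission of each library were alternatives. Further alternatives were chromosome medians or median deviations subtracted, the libraries of each clone summed, and each clone alone. Scripts were tested on simulated data.

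The labels do not say that replicates are separate cultures, so p-values measure the spread between these libraries. Same-numbered WT and DGCR8 KO libraries deviated together (r = 0.15, 0.27 and 0.28), so those numbers may pair samples. The main fits had no replicate term and so ignored any pairing, which the replicate block took in. DDX6 KO libraries did not pair with them throughout. No 2 libraries agreed within sampling noise. The named genes were the members, Dgcr8, Ddx6, up to 3 per direction of each list that passed, and the 2 genes most like each member; a few other list genes were named after their values were seen. The members and lists were chosen with earlier results of these data known. An item of the pathway is not reported here.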

Additional observations from a re-analysis of the deposited data

Results flagged for a closer look

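The effects of the knockouts on 5 of the 7 NMD factors differed by the direct comparison of DGCR8 KO with DDX6 KO libraries, with WT common to both (limma-voom, log2 difference, DGCR8 KO minus DDX6 KO). Of all tested genes 44.0% passed in that comparison. Smg1 differed by 0.95, having risen in the DGCR8 KO and fallen in DDX6 KO cells. Smg5 differed by -0.67 and Upf3b by -0.54, having fallen in the DGCR8 KO while their DDX6 KO values (0.19 and 0.10 against WT) did not pass. Upf1 differed by -0.52, a value that was -0.11 with the median deviation of chromosome 8 subtracted. Upf2 differed by 0.33, which passed in 4 of 25 alternative settings. None of the 7 had a DDX6 KO library set apart from the other 3 by Dixon's test.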

How the results depend on the processing

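Of 504 values for single members over the 3 comparisons of genotypes and their alternative settings, 452 kept their direction and their side of the threshold, 31 lost the call, 6 gained it and 15 changed sign. The number of members passing was 3 in DGCR8 KO against WT with chromosome medians or median deviations subtracted, and 1 in DDX6 KO against WT with clone 2 alone. Leaving out 1 library at a time, it ran from 4 to 5 for DGCR8 KO against WT, 2 to 3 for DDX6 KO against WT, 4 to 5 between the knockouts, 1 to 2 for clone 1 (1 without either clone 1 library), 0 to 2 for clone 2 (0 without clone 2 replicate 1, and 2 without DGCR8 KO replicate 2, where Upf2 also passed) and stayed 0 between the clones. For clone 2 it was 3 with chromosome medians subtracted and 2 with the replicate block. The replicate block gave Upf2 a call in DDX6 KO against WT (-0.41, adjusted p = 0.012, limma) and in clone 2 (-0.50, adjusted p = 0.0098) and changed no other member's call; the DDX6 KO numbers are not shown to pair samples. The values that changed sign lay close to 0 except those with chromosomes subtracted. In DGCR8 KO against WT, Upf2 became 0.031 and 0.040 without WT replicate 1 or 2 and 0.031 and 0.057 without DGCR8 KO replicate 1 or 3 (-0.096 to 0.057 over the omissions of 1 library), and Smg6 became -0.053 with upper quartiles, -0.025 with chromosome medians subtracted and -0.026 without WT replicate 2 (up to 0.10 over the omissions). In DDX6 KO against WT, with library totals as the scale, Upf1 became 0.0084 and Smg6 0.069, Smg6 became 0.0066 without WT replicate 1 (down to -0.12 over the omissions), and Upf3b became -0.24 with chromosome medians and -0.05 with median deviations subtracted. Between the knockouts Upf3a became 0.35 with chromosome medians and 0.29 with median deviations subtracted, and Smg6 became -0.032 with library totals. Between the clones Upf2 became 0.0097 without clone 2 replicate 1 (-0.43 to 0.0097 over the omissions). The cause was not tested. Library totals moved the median log2 fold change of all genes in DDX6 KO against WT from 0.02 to 0.15 and the share of higher calls from 51.8% to 67.5%; with chromosome medians subtracted it was 37.7%, and 41.3% in place of 54.7% in DGCR8 KO against WT. The median-deviation setting and the clone settings other than tool and scale were chosen after seeing the data.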
